A study of Sus scrofa with 6 samples.

Results

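The solute carriers described here are 120 genes of pig (Sus scrofa) keratinocyte clones, out of 6765 genes that had a probe set of their own on the array. A gene was included where the only symbol of a probe set in the array's annotation began with SLC and a digit. Where a gene had several probe sets, the brightest by its mean over the 6 arrays was used. The 120 genes had 176 probe sets among the 23999 tested, with 1 probe set for 81 genes and several for 39. They fell into 37 families. Of these genes, 3 (SLC9A3R1, SLC9A3R2 and SLC2A4RG) encode proteins that bind or regulate a carrier rather than move a solute, and they were kept because their symbols meet the rule.

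Solute carriers are membrane proteins that move small molecules and ions by facilitated diffusion or by coupling the solute to a gradient of sodium, protons or another solute. Many families take a characteristic set of substrates, and the substrate classes used here mostly follow the family number in the gene symbol. The plasma membrane carriers of an epithelium bring in sugars, amino acids, metals and vitamins, and the mitochondrial and Golgi carriers distribute nucleotides, metabolites and nucleotide sugars within the cell. At the surface of the eye, where the cornea has no blood vessels, the epithelium depends on carriers for glucose and amino acids.

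The conjunctival group was 3 keratinocyte clones and the corneal group 3 clones from the central cornea, all grown from biopsies of white domestic pigs taken at a distance of 6 mm from the limbus, the border of the cornea. Each clone was founded by 1 cell picked from a mass culture and was grown, like that culture, on a feeder layer of mouse fibroblasts, the irradiated line 3T3-J2. No treatment is named for either group, although the project field of the array run files names an irradiation time course. The labels name 2 animals without tying clones to them, so at least some of the 3 clones of a tissue share an animal. The study set the 2 tissues side by side to find genes whose expression differs between them.

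Each clone was measured on 1 Affymetrix porcine array. All levels below are log2 RMA values, in which a step of 1 is a 2-fold step in signal. The array medians lay between 4.40 and 4.48, and the median of the 23999 probe sets was 4.45. Among the markers of stratified epithelium, 8 of the 9 measured lay above that median, with PERP at 13.24, SFN at 12.86, DSP at 12.09 and CDH1 at 11.10. The exception was ITGA6 at 3.60. None of the corneal markers KRT3, KRT12 and PAX6 or of the conjunctival markers KRT4, KRT13, KRT7 and MUC5AC had a probe set used here, so the tissue labels were not checked against them. Of the fibroblast markers, 7 of 9 were measured, and their mean lay between 5.84 and 6.35 in conjunctival clones and between 5.70 and 6.13 in corneal clones. Of the 7, 4 lay above the probe set median, with THY1 at 10.82, COL1A2 at 7.10, PDGFRB at 6.71 and DCN at 6.69. THY1 was bright in every clone, and its lowest value was 9.66, in cornea clone 3. LUM was at 2.89, while DCN reached 8.48 and THY1 12.24 in conjunctiva clone 2, the highest of the 6 values for both. The other measured fibroblast markers were not highest in that clone. COL1A2 was at 6.83 there and at 7.81 in cornea clone 1, and PDGFRB at 6.57 there and at 6.91 in cornea clone 3. The measured markers of melanocytes (3 of 6, list means of 3.53 to 3.72 in conjunctiva and 3.64 to 3.89 in cornea) all lay below the probe set median. Markers of leukocytes (5 of 7, list means of 4.41 to 4.68 and 4.32 to 4.72) and of endothelium (5 of 5, list means of 4.50 to 4.81 and 4.49 to 4.70) lay below the probe set median except LAPTM5, PECAM1 and VWF, and PTPRC stood at 3.44. PECAM1 averaged 7.97 in conjunctiva and 7.41 in cornea, with an unadjusted limma p of 0.030 and an adjusted p of 0.99992. The differences of LAPTM5 (0.29) and VWF (-0.12) had standard errors of 0.42 and 0.19. The part of these other cell types in the differences described below was not tested. In RNA from whole cultures, fewer cells of a type and less RNA per cell cannot be told apart.

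The median level over the 120 genes was 5.001, against 6.11 over all genes. At or above the median of all probe sets lay 80 of the 120, or 66.7%, against 73.8% of all genes. Of the 120, 14 (11.7%) reached 7.71, the level that 25% of all genes reach or exceed. The other 40 genes lay below the probe set median, where signal and background are hard to separate. The order of signals given next is an order of probe sets, since the brightness of a probe set also depends on its own probes, and it is not an order of transcript numbers.

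The brightest carriers were the housekeeping exchangers of the inner mitochondrial membrane and the glucose carrier of the plasma membrane. SLC25A6 and SLC25A5, which encode ADP/ATP translocases, averaged 11.87 and 10.72 over the 6 arrays and ranked 1 and 3. These translocases are near-identical in sequence, so their probe sets may share signal and the split between them is uncertain. Between them ranked SLC25A3, the mitochondrial phosphate carrier, at 11.35. SLC2A1, which encodes the glucose carrier GLUT1, was at 10.55. Then came SLC25A17, a peroxisomal carrier of the same family (9.54), the citrate carrier SLC25A1 (9.23), the scaffold gene SLC9A3R1 (9.21), the ATP-magnesium/phosphate carrier SLC25A24 (8.98) and the neutral amino acid and glutamine carrier SLC1A5 (8.56). The list of 15 ended with SLC25A39, which serves mitochondrial glutathione import (8.49), the cationic amino acid carrier SLC7A1 (8.04), the aspartate/glutamate carrier SLC25A12 (7.94), SLC35B1 of the endoplasmic reticulum (7.84), the oxodicarboxylate carrier SLC25A21 (7.80) and the creatine carrier SLC6A8 (7.67). Of these 15 genes, 9 belong to the SLC25 family. Their differences of conjunctiva minus cornea ran from -0.24 to 0.52, and for 12 of the 15 the 95% confidence interval of the difference excluded a 2-fold step in either direction.

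**Figure D1:**
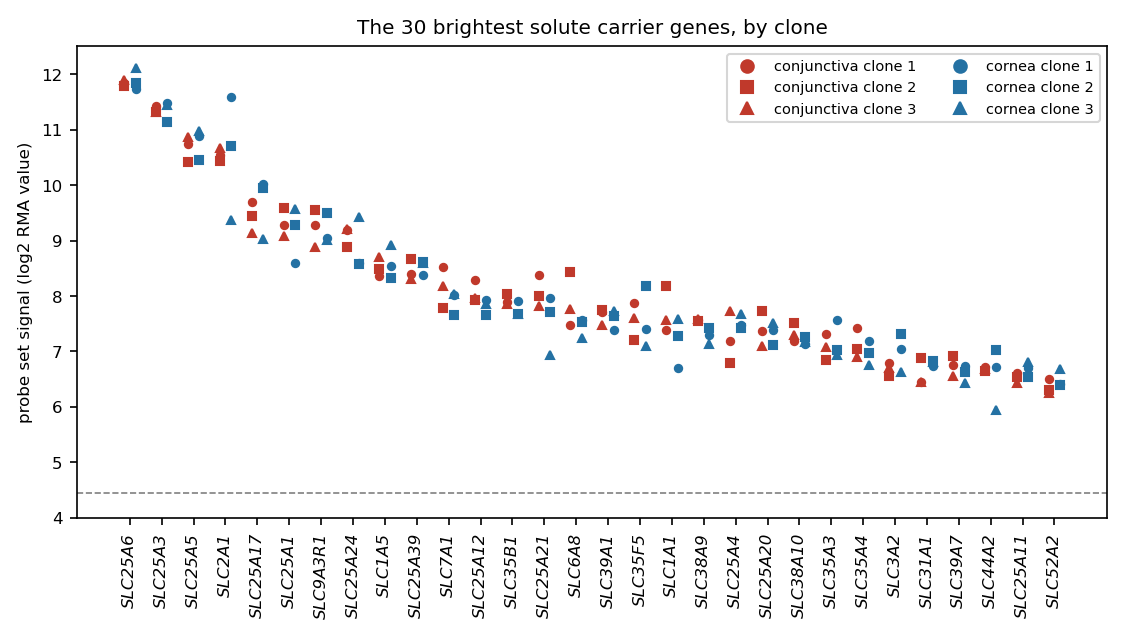
The 30 solute carrier genes with the highest signal, ordered by their mean, with 1 point for each clone; the vertical axis is the log2 RMA value and the dashed line is the median of all probe sets (4.45). For most genes the red points of conjunctiva and the blue points of cornea lie on top of each other, and SLC2A1 is the gene among the brightest 4 whose corneal clones spread widely (9.37 to 11.60).

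No carrier gene passed the test for a difference between the tissues. In the limma fit over all probe sets 0 of 23999 had an adjusted p below 0.05 (0%), and all 20 carriers with the smallest p of each direction had an adjusted p of 0.99992. Without adjustment for multiple tests, 5 carriers higher in conjunctiva (1.55% of all probe sets) and 1 lower (1.15%) had a limma p below 0.05. Both directions together gave 6 of 120 carriers (5.0%) and 2.70% of all probe sets. The 3 values of one tissue all lay above the 3 of the other for 4 carriers higher in conjunctiva (3.44% of all probe sets) and 3 lower (3.83%). Tissue means at least 2-fold apart were seen for 2 carriers higher in conjunctiva (0.254% of all probe sets) and for 0 lower (0.233%). The 2 carriers became 1 without conjunctiva clone 1 and 0 without conjunctiva clone 2. Over all 6765 genes, 31 were at least 2-fold higher and 29 at least 2-fold lower.

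Deviations from the tissue mean were correlated across probe sets between conjunctival and corneal clones. Clones carrying the same number gave 0.354, 0.169 and 0.349, and clones of different numbers gave -0.382 to 0.11. The deviations within a tissue cancel by construction, so these correlations are tied to each other. The fit with the clone number as a block found more small p-values. With that block 8 carriers higher in conjunctiva (2.85% of all probe sets) and 3 lower (2.17%) had an unadjusted p below 0.05, which makes 11 of 120 against 5.02% of all probe sets. Of the 6 carriers below 0.05 without the block, 4 were also below it with the block (SLC6A14, SLC38A1, SLC35C2 and SLC23A1), while SLC38A9 and SLC8B1 were not. The 7 carriers below 0.05 with the block alone were SLC5A1, SLC25A21, SLC1A1, SLC39A2, SLC25A36, SLC23A2 and the zinc carrier SLC30A3, which is named for this count after its values were seen (difference 0.27, unadjusted p 0.049 with the block; its other probe set differed by -0.24). None had an adjusted p below 0.05 there either, and the smallest adjusted p among the carriers was 0.863. Single clones moved the count of 6 from the fit without the block. It was 3 without conjunctiva clone 1 (2.44% of all probe sets) and 3 without conjunctiva clone 2 (2.24%). Without cornea clone 1 it was 2 (2.29%), and without cornea clone 3 it was 12 (4.33%).

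A larger share of the bright than of the dim carriers had the higher mean in conjunctiva. Of the 120 carriers 53 had the higher mean in conjunctiva and 67 in cornea, and their median difference was -0.032, against 0.014 over all genes. Among the 80 carriers at or above the probe set median, 44 were higher in conjunctiva (55.0%) with a median of 0.053, and among all such genes 58.2% were, with a median of 0.037. Among the 40 dim carriers 9 were higher in conjunctiva (22.5%) with a median of -0.092, against 40.5% of all dim genes with a median of -0.031. Dim probe sets hold little signal from the gene, so the descriptions below rest mainly on the brighter ones. For 105 of the 120 carriers (87.5%) the 95% confidence interval excluded a 2-fold difference in either direction, against 89.3% of all genes.

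**Figure D2:**
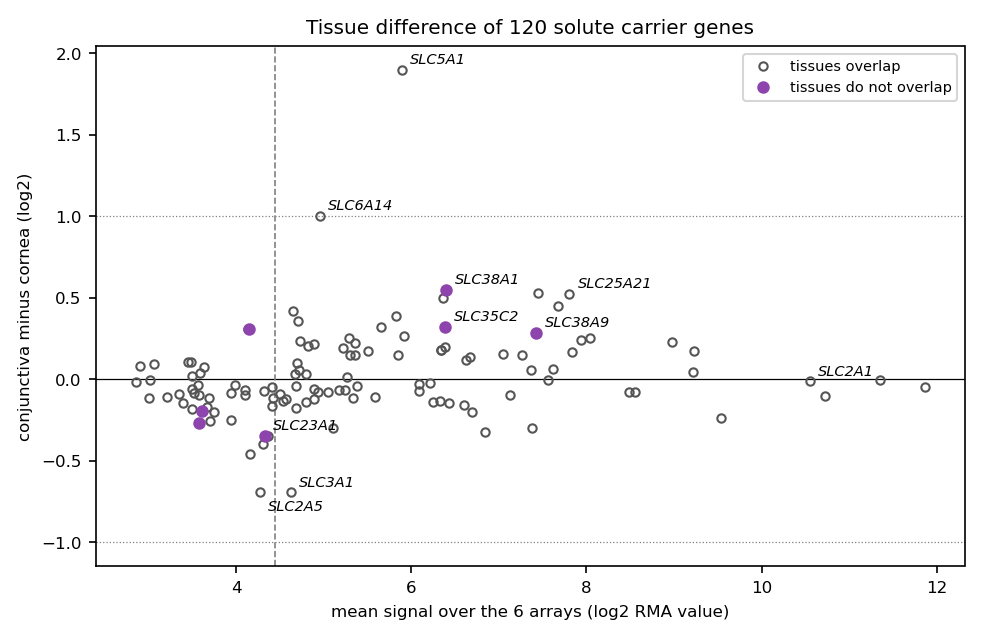
Each of the 120 solute carrier genes by its mean log2 RMA value over the 6 arrays (horizontal) and its difference of conjunctiva minus cornea on the log2 scale (vertical); filled points are the 7 genes whose tissues did not overlap, the vertical dashed line is the median of all probe sets and the dotted lines mark a 2-fold difference. SLC5A1 (1.90) and SLC6A14 (1.00) are the points at or above the upper dotted line, and the bright genes to the right lie close to 0.

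Among the sugar carriers, SLC5A1 had the largest difference between the tissues of all 120 genes and also the widest spread among clones. SLC5A1 encodes a cotransporter that takes up glucose together with sodium against a gradient. It measured 5.57, 8.72 and 6.23 in conjunctiva clones 1, 2 and 3, against 4.35, 6.34 and 4.14 in cornea clones 1, 2 and 3. The values of cornea clones 1 and 3 lay below the probe set median of 4.45, where signal and background are hard to separate. Clone 2 was the highest of its tissue on both sides, and the value of cornea clone 2 exceeded those of conjunctiva clones 1 and 3, so the tissues overlapped. The means were 6.84 ± 1.66 in conjunctiva and 4.94 ± 1.21 in cornea (SD, n = 3 each), a difference of 1.90 with a standard error of 0.92, or 3.72-fold. Its unadjusted limma p was 0.080, and the 95% confidence interval ran from -0.30 to 4.10. Within each clone number the conjunctival value was the higher one, by 1.22, 2.38 and 2.09, and with the number as a block the unadjusted limma p was 0.000405 and the adjusted p 0.863. Without conjunctiva clone 2 the difference was 0.96. On fluidics station 1, which held cornea clone 1 and conjunctiva clones 2 and 3, it was 3.12, and on station 2, which held the other clones, it was 0.33.

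SLC2A1, the facilitative glucose carrier, had nearly equal tissue means and a wide spread in the cornea. It measured 10.54, 10.43 and 10.67 in conjunctival clones, against 11.60, 10.71 and 9.37 in corneal clones. The corneal clones thus lay on both sides of the conjunctival ones, and their SD was 1.12, against 0.12 in conjunctiva. Its difference was -0.01 with a standard error of 0.51, and the 95% confidence interval of -1.23 to 1.21 does not exclude a 2-fold difference in either direction. Leaving out cornea clone 1 gave 0.51 and leaving out cornea clone 3 gave -0.61.

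SLC2A5, the fructose carrier, was dim in 5 of the 6 clones, at 4.02, 3.87 and 3.88 in conjunctiva and at 3.91, 4.005 and 5.92 in cornea. Cornea clone 3, the clone with the lowest SLC2A1 signal, was the exception, and without it the difference of -0.69 shrank to -0.04. SLC2A3, the glucose carrier GLUT3, measured 4.74 ± 0.29 in conjunctiva and 4.64 ± 0.39 in cornea (SD, n = 3 each). SLC2A12, another facilitative sugar carrier, was lower in conjunctiva at 4.11 ± 0.27, against 4.51 ± 0.33 in cornea (SD, n = 3 each), below the probe set median on average and with overlapping clones, and without conjunctiva clone 1 its difference of -0.39 was -0.24. SLC37A4, which moves glucose 6-phosphate into the endoplasmic reticulum, measured 6.27, 6.28 and 6.74 in conjunctival clones, against 6.27, 6.24 and 6.23 in corneal clones. Over the 15 sugar carriers 6 means were higher and 9 lower in conjunctiva, and the median difference was -0.04.

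The carriers of amino acids and related compounds held 3 of the 5 genes with an unadjusted p below 0.05 and a higher mean in conjunctiva. These were 3 of its 19 genes (15.8%), against 4.17% of all 120 carriers, 1.94% of all genes and 1.55% of all probe sets, and the share was not tested. SLC6A14, which takes up neutral and cationic amino acids with sodium and chloride, measured 5.75, 6.02 and 4.58 in conjunctival clones, against 4.61, 4.61 and 4.13 in corneal clones. Conjunctiva clones 1 and 2 lay above all corneal clones and conjunctiva clone 3 fell among them. The difference was 1.00 with a standard error of 0.38, a 2.00-fold difference, and the unadjusted limma p was 0.033. It was 0.69 on station 1, 1.38 on station 2 and 0.72 without conjunctiva clone 2. A second, dim probe set of SLC6A14 (mean 3.47) differed by 0.11.

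SLC38A1, a sodium-coupled carrier of glutamine and other neutral amino acids, measured 6.80, 6.63 and 6.59 in conjunctival clones, against 6.20, 5.72 and 6.46 in corneal clones. All 3 conjunctival values lay above all 3 corneal ones. The difference was 0.55 with a standard error of 0.19 and an unadjusted limma p of 0.027, or 0.35 without cornea clone 2, 0.42 on station 1 and 0.71 on station 2. The 2 other probe sets of the gene differed by 0.26 and 0.18, in the same direction. SLC38A9, a lysosomal member of the family known as an arginine sensor, measured 7.56, 7.55 and 7.59 in conjunctival clones, against 7.30, 7.42 and 7.14 in corneal clones. Its conjunctival clones were nearly identical, with an SD of 0.02, and again none overlapped with the cornea. The difference of 0.28 had a standard error of 0.11 and an unadjusted limma p of 0.037, and it was 0.27 on station 1 and 0.29 on station 2. With the clone number as a block the unadjusted limma p was 0.056. A second, dim probe set of SLC38A9 (mean 3.51) differed by -0.04, the opposite direction.

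Further amino acid carriers differed by less than their spread allowed to call. SLC1A1, a glutamate and aspartate carrier, measured 7.39, 8.18 and 7.58 in conjunctival clones, against 6.70, 7.27 and 7.59 in corneal clones. Its tissues overlapped through cornea clone 3, and the difference of 0.53 became 0.29 without cornea clone 1. Its unadjusted limma p was 0.110, or 0.044 with the clone number as a block. The second brightest of its 5 probe sets had a mean of 5.53 and differed by -0.32, the opposite direction. SLC6A8, the creatine carrier, measured 7.49, 8.44 and 7.77 in conjunctival clones, against 7.57, 7.53 and 7.24 in corneal clones. Its difference of 0.45 became 0.18 without conjunctiva clone 2. SLC3A2, the heavy chain that brings light-chain amino acid exchangers to the plasma membrane, measured 6.78, 6.56 and 6.69 in conjunctival clones, against 7.05, 7.32 and 6.62 in corneal clones, a difference of -0.32 that was -0.16 without cornea clone 2. SLC1A5 measured 8.52 ± 0.18 in conjunctiva and 8.60 ± 0.30 in cornea, and SLC7A1 measured 8.16 ± 0.37 in conjunctiva and 7.91 ± 0.22 in cornea (SD, n = 3 each).

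SLC3A1 and SLC1A6 varied most among clones of this class. SLC3A1, a heavy chain for cystine and basic amino acid uptake, measured 4.72, 3.99 and 4.11 in conjunctival clones, against 6.12, 4.81 and 3.97 in corneal clones. The high value was that of cornea clone 1, and without it the difference of -0.69 became -0.12. The difference was -2.07 on station 1 and 0.33 on station 2. A second, dim probe set of SLC3A1 (mean 3.40) differed by 0.0036. SLC1A6, a glutamate carrier known from Purkinje cells of the cerebellum, measured 5.65, 4.02 and 5.11 in conjunctival clones, against 5.50, 4.96 and 3.70 in corneal clones. Both tissues had 1 clone below the probe set median, with an SD of 0.83 in conjunctiva and 0.93 in cornea. SLC36A2, a proton-coupled carrier of small amino acids, was dim, at 3.58 ± 0.15 in conjunctiva and 3.83 ± 0.20 in cornea (SD, n = 3 each). Over the 19 genes 8 means were higher and 11 lower in conjunctiva, with a median difference of -0.06; over the 13 brighter ones 8 lay higher and 5 lower (median 0.21).

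The mitochondrial carriers were the brightest class, with nearly as many means lower as higher in conjunctiva. This class is the whole measured SLC25 family, and so includes the peroxisomal SLC25A17. Their median level was 7.37, 17 of 21 lay at or above the probe set median, and 11 means lay higher in conjunctiva and 10 lower (median difference 0.04). Taken without sign, the median difference was 0.16, against 0.14 over all 120 carriers and 0.12 over all genes. SLC25A6 measured 11.85, 11.78 and 11.90 in conjunctival clones, against 11.72, 11.84 and 12.11 in corneal clones. SLC25A3 measured 11.43, 11.32 and 11.31 in conjunctival clones, against 11.48, 11.15 and 11.45 in corneal clones. For both genes the clones interleaved, with differences of -0.05 and -0.0036, standard errors of 0.13 and 0.12, and 95% confidence intervals of -0.36 to 0.26 and -0.30 to 0.29. For SLC25A5 the difference was -0.10 with a standard error of 0.18.

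Within the SLC25 family, SLC25A21 had the largest difference between the tissues. It encodes a carrier of oxodicarboxylates, intermediates of lysine and tryptophan breakdown, and measured 8.37, 7.99 and 7.82 in conjunctival clones, against 7.97, 7.71 and 6.94 in corneal clones. The tissues overlapped, cornea clone 3 was the lowest value, and the difference of 0.52 became 0.22 without that clone. It was -0.06 on station 1 and 1.05 on station 2. Within each clone number the conjunctival value was the higher one, by 0.40, 0.28 and 0.88, and the unadjusted limma p was 0.111, or 0.017 with the clone number as a block. SLC25A30 measured 4.89 ± 0.08 in conjunctiva and 4.53 ± 0.31 in cornea (SD, n = 3 each), and without cornea clone 2 its difference of 0.36 was 0.20. SLC25A36, a carrier of pyrimidine nucleotides, measured 4.19 ± 0.29 in conjunctiva and 4.53 ± 0.17 in cornea (SD, n = 3 each), and without conjunctiva clone 2 its difference of -0.35 was -0.18. Its unadjusted limma p was 0.089, or 0.027 with the block. SLC25A33, another pyrimidine nucleotide carrier, measured 6.16, 6.10 and 6.54 in conjunctival clones, against 5.77, 6.02 and 7.40 in corneal clones. Its high value came from cornea clone 3, and leaving that clone out turned the difference of -0.13 into 0.37. SLC25A17 (-0.24, standard error 0.29), SLC25A1 (0.17, standard error 0.27), SLC25A24 (0.23, standard error 0.24), SLC25A12 (0.24, standard error 0.14) and SLC25A39 (-0.08, standard error 0.14) all had overlapping clones. With 1 clone left out these differences ran from -0.55 to -0.06 for SLC25A17, from -0.11 to 0.38 for SLC25A1, from 0.08 to 0.50 for SLC25A24, from 0.13 to 0.31 for SLC25A12 and from -0.18 to -0.0023 for SLC25A39.

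The class of nucleotide sugar carriers is the whole measured SLC35 family, set by the family number and not by what each member was shown to carry. All of its genes were at or above the probe set median, 10 of 10, with a median level of 6.39. SLC35C2, linked to the fucosylation of Notch, measured 6.51, 6.61 and 6.52 in conjunctival clones, against 6.06, 6.21 and 6.40 in corneal clones. All 3 conjunctival values lay above all 3 corneal ones, by a difference of 0.32 with a standard error of 0.12 and an unadjusted limma p of 0.031. The other probe set of SLC35C2, with a mean of 5.82, differed by -0.04, so the 2 probe sets did not show the same difference. On station 1 the brighter one differed by 0.50 and on station 2 by 0.21. SLC35B1 measured 7.92 ± 0.10 in conjunctiva and 7.75 ± 0.14 in cornea (SD, n = 3 each). SLC35F5 had a mean of 7.56 in both tissues, with an SD of 0.33 in conjunctiva and 0.56 in cornea. SLC35A3, the carrier of UDP-N-acetylglucosamine, measured 7.08 ± 0.23 in conjunctiva and 7.17 ± 0.34 in cornea (SD, n = 3 each). Of the 10 genes 6 means were higher and 4 lower in conjunctiva, with a median difference of 0.09.

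Of the 13 metal ion carriers 12 lay at or above the probe set median, and 7 means lay higher in conjunctiva and 6 lower (median difference 0.06). The zinc importer SLC39A1 measured 7.65 ± 0.14 in conjunctiva and 7.59 ± 0.18 in cornea, and SLC39A7, which releases zinc from the endoplasmic reticulum, 6.74 ± 0.18 in conjunctiva and 6.61 ± 0.15 in cornea (SD, n = 3 each). The copper importer SLC31A1 measured 6.59 ± 0.26 in conjunctiva and 6.79 ± 0.05 in cornea (SD, n = 3 each). SLC39A2, another zinc importer of the plasma membrane, varied more, at 6.41, 7.45 and 5.98 in conjunctival clones, against 5.97, 6.60 and 5.78 in corneal clones. Clone 2 was the highest of both tissues, the conjunctival value was the higher one within each clone number (by 0.44, 0.86 and 0.20), and without conjunctiva clone 2 the difference of 0.50 was 0.08. Its unadjusted limma p was 0.252, or 0.022 with the clone number as a block. The copper carrier SLC31A2 (6.07 ± 0.39 in conjunctiva and 6.10 ± 0.56 in cornea) and the magnesium carrier SLC41A1 (5.37 ± 0.56 in conjunctiva and 5.22 ± 0.41 in cornea, SD, n = 3 each) also spread widely. SLC11A1, a divalent metal carrier known from phagocytes, was dim at 3.51 ± 0.10 in conjunctiva and 3.70 ± 0.07 in cornea (SD, n = 3 each), with no overlap between the tissues.

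Vitamin and choline carriers were mostly dim, with 4 of 9 at or above the probe set median. SLC23A1, a sodium-coupled carrier of vitamin C, was the only carrier with a lower mean in conjunctiva and an unadjusted limma p below 0.05 (0.028). It measured 3.99, 4.28 and 4.20 in conjunctival clones, against 4.63, 4.50 and 4.38 in corneal clones, with no overlap and a difference of -0.35 with a standard error of 0.12. The signal lay below the probe set median on average, and the other probe set of SLC23A1 differed by 0.10, the opposite direction. On station 1 the difference was -0.39 and on station 2 it was -0.45. SLC23A2, the second vitamin C carrier, measured 4.11, 3.98 and 3.69 in conjunctival clones, against 4.92, 4.01 and 4.23 in corneal clones, and without cornea clone 1 its difference of -0.46 was -0.19. Its unadjusted limma p was 0.109, or 0.043 with the clone number as a block. SLC5A6, which takes up biotin and pantothenate, measured 6.02, 5.45 and 6.59 in conjunctival clones, against 5.65, 5.55 and 5.70 in corneal clones, and without conjunctiva clone 3 its difference of 0.39 was 0.10. SLC44A4 measured 4.21, 5.59 and 4.78 in conjunctival clones, against 4.24, 4.68 and 4.41 in corneal clones, and without conjunctiva clone 2 its difference of 0.42 was 0.05. The choline carrier SLC44A2 measured 6.69 ± 0.03 in conjunctiva and 6.57 ± 0.55 in cornea, and the riboflavin carrier SLC52A2 6.35 ± 0.13 in conjunctiva and 6.50 ± 0.17 in cornea (SD, n = 3 each). SLC46A2, at 3.44 ± 0.17 in conjunctiva and 3.71 ± 0.14 in cornea (SD, n = 3 each), did not overlap but was dim, and without conjunctiva clone 1 its difference of -0.27 was -0.17.

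Exchangers of bicarbonate, protons, chloride and calcium had a median level of 4.28, and 5 of 12 lay at or above the probe set median. All 5 of these had the lower mean in conjunctiva (median difference -0.13), and so did 2088 of all 4993 genes at or above that median. The largest of these 5 differences was that of SLC12A4, a potassium-chloride cotransporter that serves cell volume. It measured 4.86, 5.04 and 4.98 in conjunctival clones, against 5.45, 4.98 and 5.34 in corneal clones. Cornea clone 2 fell among the conjunctival clones, and the difference was -0.30 with a standard error of 0.15. Its unadjusted limma p of 0.085 was the smallest of the 5. The chloride/bicarbonate exchanger SLC4A2 measured 5.01 ± 0.15 in conjunctiva and 5.09 ± 0.12 in cornea, and the sodium/proton exchanger SLC9A5 5.53 ± 0.10 in conjunctiva and 5.64 ± 0.14 in cornea (SD, n = 3 each). The dim SLC4A4, a sodium-bicarbonate cotransporter, measured 3.90 ± 0.22 in conjunctiva and 3.98 ± 0.16 in cornea (SD, n = 3 each). SLC8B1, the mitochondrial sodium/calcium exchanger, was dim as well, at 4.45, 4.34 and 4.10 in conjunctival clones, against 3.97, 3.91 and 4.09 in corneal clones. Its clones did not overlap, although the closest values were 4.10 in conjunctiva and 4.09 in cornea. Its difference of 0.31 had a standard error of 0.13 and an unadjusted limma p of 0.049, or 0.075 with the clone number as a block.

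Carriers of organic ions and peptides were close to the floor of the array, as were most of the smaller classes. Of the 7 genes for organic ions, peptides, amines and urea, 1 lay at or above the probe set median, SLC22A6 at 4.80. The peptide carrier SLC15A1 was at 4.10 and the organic anion carrier SLC22A8 at 3.64. The lactate exporter SLC16A3 measured 3.96 ± 0.38 in conjunctiva and 3.999 ± 0.28 in cornea, and the phosphate and organic anion carrier SLC17A1 3.40 ± 0.17 in conjunctiva and 3.58 ± 0.10 in cornea (SD, n = 3 each), all below the median of all probe sets. The scaffold gene SLC9A3R1, whose product anchors carriers to the cytoskeleton, was bright and even, at 9.24 ± 0.33 in conjunctiva and 9.19 ± 0.28 in cornea (SD, n = 3 each). Of 19 carriers fixed for naming, 10 were measured. Among the others, SLC7A5, SLC7A11, SLC16A1, SLC6A6, SLC20A1, SLC39A6, SLC19A1 and SLC12A2 were not analysed here.

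**Figure D3:**
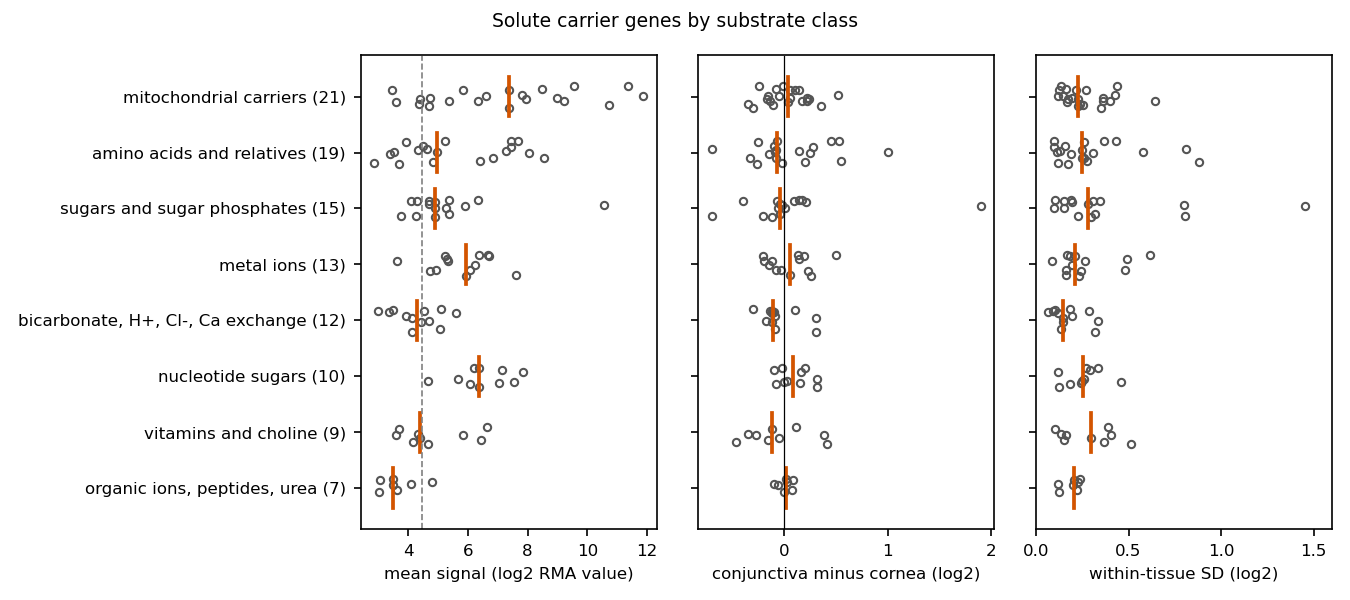
The 8 substrate classes with at least 7 genes, 1 point for each gene and an orange bar at the class median: left, the mean log2 RMA value, with the median of all probe sets dashed; middle, conjunctiva minus cornea on the log2 scale; right, the SD among clones of a tissue, pooled over both tissues. Mitochondrial carriers have the highest median level (7.37) and organic ion carriers the lowest (3.49), and every class median of the difference lies between -0.11 and 0.09.

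For most carriers the clones of a tissue lay close together. The SD among clones of a tissue, pooled over the tissues, had a median of 0.22 over the 120 carriers and of 0.22 over all genes, and among the brighter genes it was 0.25 for carriers and 0.25 for all. An SD of at least 0.5 was seen for 9 carriers (7.5%), against 8.97% of all genes. These 9 were SLC5A1 (1.45), SLC1A6 (0.88), SLC3A1 (0.81), SLC2A5 (0.80), SLC2A1 (0.80), SLC25A33 (0.64), SLC39A2 (0.62), SLC6A14 (0.58) and SLC44A4 (0.51), so that sugar and amino acid carriers held 3 each. Among the 8 classes with at least 7 genes, the median SD was highest for vitamin and choline carriers (0.30) and sugar carriers (0.28) and lowest for the bicarbonate, proton, chloride and calcium exchangers (0.15), most of which were dim. In 3 of the 9 genes the clone farthest from its tissue mean was conjunctiva clone 2, above the mean each time, and in 4 it was cornea clone 3, above the mean in 2 and below it in 2.

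**Figure D4:**
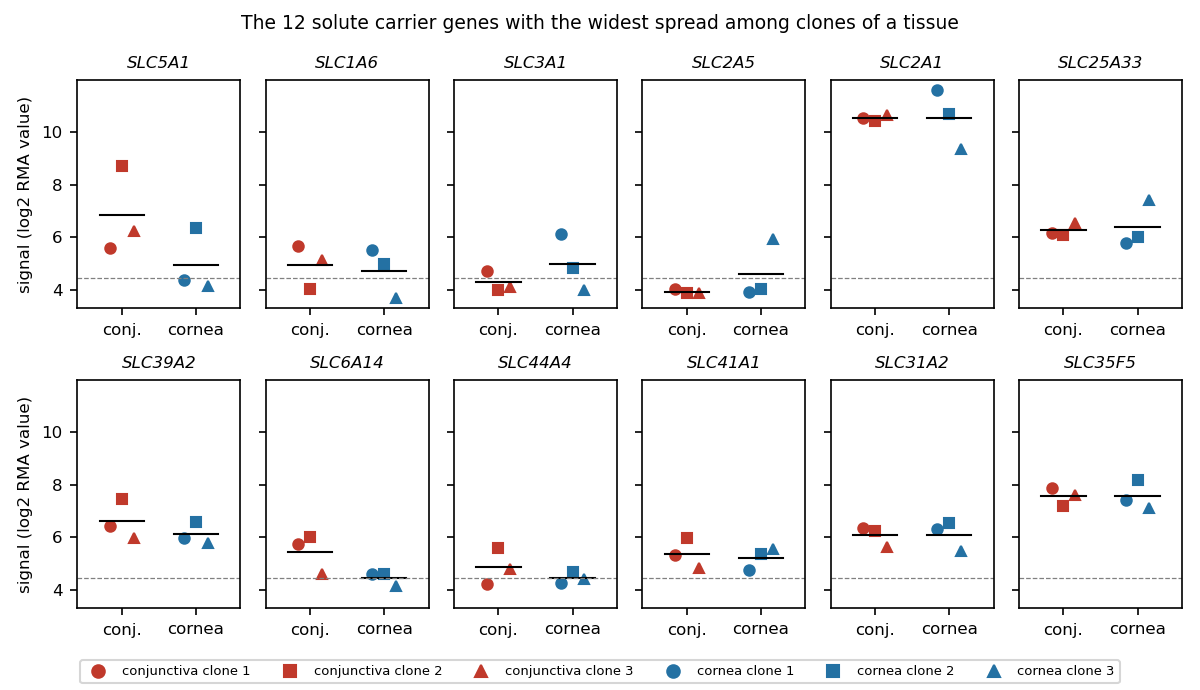
The 12 solute carrier genes with the largest SD among clones of a tissue, each in its own panel on a shared log2 RMA axis; conjunctiva is red and on the left, cornea blue and on the right, the symbol gives the clone number, the black bar the mean of 3 clones and the dashed line the median of all probe sets. In SLC5A1, SLC39A2 and SLC44A4 clone 2 (square) is highest in both tissues, while in SLC2A1, SLC2A5 and SLC25A33 the spread lies mainly in the cornea.

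Conjunctiva clone 2 gave the highest of the 6 values for more of the brighter carriers than any other clone. It was highest for 26 of the 80, or 32.5%, and among all 4993 genes of that brightness it was highest for 18.5%. It was lowest for 6 carriers (7.5%), against 14.3% of all such genes. Cornea clone 3 was highest for 17 carriers (21.2%) and lowest for 19 (23.8%), against 21.3% and 16.5% of all such genes, and cornea clone 2 was highest for 5 (6.25%), against 14.4%. This pattern was noticed in the data and was not tested. Of the fibroblast markers, DCN and THY1 were also highest in conjunctiva clone 2, while COL1A2 was highest in cornea clone 1 and PDGFRB in cornea clone 3. The part of these genes in the pattern was not tested.

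Between pairs of clones few carriers were far apart. Conjunctiva clone 2 and cornea clone 1 were at least 2-fold apart for 11 of the 120 carriers (9.17%), against 4.04% of all probe sets, and these were the most of any pair. Within a tissue the number ran from 1 carrier (0.833%), for conjunctiva clones 1 and 3, to 8 (6.67%), for cornea clones 2 and 3, against 2.50% and 4.24% of all probe sets in these pairs. Conjunctiva clone 3 and cornea clone 2 were 2-fold apart for 1 carrier (0.833%), against 3.36% of all probe sets. Across the 120 carriers, Pearson's r between 2 clones lay between 0.942 and 0.985, a description over genes that differ widely in signal and are not independent.

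Where a gene had several probe sets, the others served as a check on the sign. Of 56 other probe sets, 34 had the sign of the one used, and of the 21 that lay at or above the probe set median 10 had. Probe sets of opposite sign were also found for genes with larger differences, as described for SLC35C2, SLC23A1, SLC38A9 and SLC1A1. For SLC1A1 the opposite difference of -0.32 had itself an unadjusted limma p of 0.023. A dim other probe set of SLC45A3, named here after its values were seen, differed by 0.34 (unadjusted limma p 0.012), against -0.04 for the one used. The dim other probe set of SLC31A2 differed by -0.32 (unadjusted limma p 0.025), against -0.03 for the one used.

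Genes that work beside the carriers were taken from lists of partners. The sodium pump, whose gradient drives the sodium-coupled carriers, had 6 of 13 listed subunits and regulators measured. These were ATP1B1, ATP1B3, FXYD2, FXYD3, FXYD5 and FXYD6, so no ATP1A gene was among them. All 6 had the higher mean in conjunctiva (median difference 0.25), against 53.5% of all genes, and 0 of the 6 had an unadjusted limma p below 0.05. FXYD2 was dim at 3.48 and differed by 0.07. FXYD6, a regulator of the pump, measured 8.88 ± 0.25 in conjunctiva and 8.58 ± 0.29 in cornea, and FXYD5 8.73 ± 0.14 in conjunctiva and 8.52 ± 0.33 in cornea (SD, n = 3 each). The chaperones that bring lactate carriers to the membrane were all measured (3 of 3). BSG was at 9.51 ± 0.22 in conjunctiva and 9.69 ± 0.12 in cornea (SD, n = 3 each), and NPTN differed by 0.17.

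The other transport lists showed no called gene either. Of 13 measured ABC transporters, which pump solutes with ATP, 2 means lay higher in conjunctiva and 11 lower (median difference -0.15), with 6 genes at or above the probe set median. The mean was higher in conjunctiva for 58.2% of all genes at or above that median and for 40.5% of those below it. Of the 13, 0 had an unadjusted limma p below 0.05. ABCC6 was at 5.22 ± 0.09 in conjunctiva and 5.44 ± 0.11 in cornea, and ABCF2, a family member that does not transport, at 6.33 ± 0.22 in conjunctiva and 6.12 ± 0.06 in cornea (SD, n = 3 each). The organic anion carriers of the SLCO family had 3 of 8 genes measured, with SLCO1A2 at 3.17 and SLCO2B1 at 3.55. The third, SLCO3A1, measured 6.03, 7.34 and 5.11 in conjunctival clones, against 6.17, 6.38 and 6.22 in corneal clones, so that the corneal values lay within the conjunctival range. Among 5 of 11 water channels, AQP5 measured 5.97, 5.52 and 5.79 in conjunctival clones, against 5.98, 7.54 and 5.83 in corneal clones, a difference of -0.69 with cornea clone 2 far above the others, and AQP8 differed by -0.26. Of the genes of the amino acid response, which includes ATF4 and targets of it such as the serine synthesis enzymes, 10 of 14 were measured, with 3 means higher in conjunctiva and 7 lower (median difference -0.10). PHGDH, the first enzyme of serine synthesis, measured 8.39, 8.29 and 8.85 in conjunctival clones, against 9.49, 9.29 and 8.92 in corneal clones, with no overlap. Its difference of -0.72 had an unadjusted limma p of 0.011 and an adjusted p of 0.99992, and it was the only one of the 10 below 0.05 before adjustment. PSPH, the last enzyme of that pathway, differed by 0.30. RNA quality, read as the 3' minus 5' signal of control probe sets, overlapped between the tissues for actin (0.87 ± 0.29 in conjunctiva and 0.77 ± 0.31 in cornea) and for GAPDH (0.34 ± 0.10 in conjunctiva and 0.14 ± 0.23 in cornea, each as SD over 3 clones). By clone number, clone 1 had the lowest value of its tissue for actin (0.55 in conjunctiva and 0.46 in cornea). The same held for GAPDH (0.23 in conjunctiva and -0.13 in cornea). The part of RNA quality in the shared deviations of clones with the same number was not tested.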

How the data were processed

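Keratinocyte clones of pig conjunctiva (3) and cornea (3) were each measured on 1 array. The authors deposited log2 values from RMA, which the submitters' processing notes name. By its construction RMA corrects background, quantile-normalises the arrays and summarises probes into probe sets, which hides any difference in total RNA per cell. The RMA version, and the arrays it was run on, are not given in the sources used here. Left out were 124 control probe sets, with no filter on low values. With 6 arrays and 4 residual degrees of freedom, the number of arrays limits the precision.

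Conjunctiva minus cornea was fitted with limma 3.58.1 in R 4.3.3 over 23999 probe sets (lmFit, eBayes), two-sided, with p-values adjusted by Benjamini-Hochberg across all of them at a threshold of 0.05. The script was tested on simulated data. Summaries used Python 3.11.15 and pandas 2.3.3.

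Of the probe sets 10069 had 1 symbol, 198 several and 13732 none in the annotation table. Not used were 5 probe sets that list a solute carrier beside another entry. Gene IDs of 174 of the 176 carrier probe sets matched a RefSeq table of assembly Sscrofa11.1, and 0 symbols changed. The probe sets are tied to no genome build, so no coordinates are given. Substrate classes follow the family number, with gene exceptions from general knowledge.

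Named genes, 58 in all, were the 15 with the highest mean, the 10 smallest p in each direction, the 12 largest SDs among clones, the 3 brightest of each class with at least 5 genes, and 19 fixed genes (10 measured). Partner genes were named by the 2 smallest p of each list, and SLC9A3R2 and SLC2A4RG by their class. The genes and lists were chosen with earlier results of these data known. The SD limit of 0.5 and the counts by clone were chosen after seeing the values.

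The clone numbers 1 to 3 in the labels recur in both tissues with no stated meaning. As a check, each clone's deviation from its tissue mean was correlated with that of the clone of the same number (0.354, 0.169 and 0.349 over all probe sets). Clones of different numbers gave -0.382 to 0.11. The number was also fitted as a block. Nothing says that clones of a tissue came from separate animals, so p-values measure only the spread between these clones. Fluidics station 1 held cornea clone 1 and conjunctiva clones 2 and 3, and station 2 the others. Each fluidics module number was used for arrays of 1 tissue only, so module number and tissue cannot be told apart. Every array had its own combination of station and module number, so arrays with the same module number were run on different stations.

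Alternatives were the clone number or the station as a block, each clone left out, arrays centred on their medians, the trend and robust options, no moderation, dim probe sets left out, and the probe set with the largest SD. Fits within each station and the module as a random block were added after seeing the data.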

Additional observations from a re-analysis of the deposited data

How the results depend on the processing

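No carrier gene reached an adjusted p below 0.05 in any of the 16 other settings. Over all probe sets the count past that threshold was 0 in each of them except with the trend and robust options, where it was 2 and held no carrier. The numbers below are counts of carriers or differences of conjunctiva minus cornea (log2), and the cause of each move was not tested. In some settings fewer arrays or fewer probe sets enter. In the fit described above 6 carriers (2.70% of all probe sets) had an unadjusted limma p below 0.05. Shares in brackets are those of all probe sets. The 6 became 11 with the clone number as a replicate block (5.02%), 3 without moderation (3.13%) and 3 with the trend and robust options (2.70%). With the station as a block they became 4 (2.49%), and with dim probe sets left out 2 (2.16%). Leaving out 1 clone gave between 2 and 12 (2.24% to 4.33%). The block by clone number left all differences as they were. Of the 6 carriers 4 were below 0.05 with it as well, 2 were not (SLC38A9, 0.056, and SLC8B1, 0.075), and 7 others were below it with the block alone. It changed no call at the adjusted threshold. The 7 carriers without overlap became 3 with dim probe sets left out, 84 within station 1 and 76 within station 2, where 3 arrays make overlap rare (66.7% and 65.9% of all probe sets), and 18 to 24 with 1 clone left out. The 2 carriers at least 2-fold apart became 5 within station 1, and 0 to 3 with 1 clone left out. The median difference of -0.032 lay between -0.045 and 0.011 with 1 clone left out, and was 0.053 with dim probe sets left out, 0.055 within station 1 and -0.072 within station 2.

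Several named genes changed sign. Among them were SLC23A1, SLC25A21 and SLC1A1, whose differences in the fit described above were -0.35, 0.52 and 0.53. Centring arrays on their medians, which moved the median difference of all probe sets to 0.023, gave 0.022 for SLC25A3, 0.014 for SLC2A1 and 0.025 for SLC35F5. The module number as a random block gave 0.0015 for SLC25A3. The probe set with the largest SD gave 0.10 for SLC23A1, -0.029 for SLC39A1 and -0.34 for SLC44A2. The station as a block gave 0.12 for SLC35F5, -0.038 for SLC22A6 and -0.081 for SLC2A3. Station 1 alone gave 0.12 for SLC25A6, 0.056 for SLC1A5, 0.10 for SLC25A39, -0.045 for SLC7A1, -0.061 for SLC25A21, -0.93 for SLC1A6, 0.55 for SLC25A33, 0.086 for SLC9A5, -0.0073 for SLC39A7, 0.055 for SLC15A1, -0.058 for SLC44A2, -0.20 for SLC2A3, 0.14 for SLC16A3 and 0.18 for SLC4A4. Station 2 alone gave 0.13 for SLC25A3, 0.020 for SLC25A5, 0.50 for SLC2A1, 0.21 for SLC25A17, -0.14 for SLC25A1, -0.039 for SLC1A1, 0.33 for SLC3A1, -0.33 for SLC44A4, -0.14 for SLC41A1, 0.36 for SLC31A2, 0.23 for SLC35F5, 0.33 for SLC35A3, -0.25 for SLC22A6 and -0.30 for SLC22A8. In each station 1 tissue has 1 clone, which is assumed to vary like the others. Leaving out 1 clone gave ranges that cross 0 for 21 genes. These were -0.13 to 0.063 for SLC25A6, -0.11 to 0.057 for SLC25A3, -0.26 to 0.025 for SLC25A5, -0.61 to 0.51 for SLC2A1, -0.11 to 0.38 for SLC25A1, -0.11 to 0.22 for SLC9A3R1, -0.21 to 0.086 for SLC1A5, -0.30 to 0.66 for SLC1A6, -0.44 to 0.37 for SLC25A33, -0.15 to 0.41 for SLC41A1, -0.35 to 0.19 for SLC31A2, -0.23 to 0.31 for SLC35F5, -0.14 to 0.0045 for SLC4A2, -0.034 to 0.15 for SLC39A1, -0.22 to 0.099 for SLC35A3, -0.11 to 0.18 for SLC22A6, -0.016 to 0.23 for SLC22A8, -0.19 to 0.35 for SLC44A2, -0.045 to 0.33 for SLC2A3, -0.25 to 0.12 for SLC16A3 and -0.20 to 0.027 for SLC4A4. Dim probe sets, 40 of the 120, limit what can be said of vitamin, peptide and organic ion carriers.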
